A study of Mus musculus with 5 samples.

Results

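The long noncoding RNAs described here in mouse bone marrow were 6 listed genes, 2 that stay in the nucleus at nuclear bodies (*Malat1* and *Neat1*), 1 imprinted antisense RNA (*Kcnq1ot1*) and 3 host genes of small nucleolar RNAs (*Gas5*, *Snhg6* and *Snhg8*). They were listed by name, with earlier results of these data known, and no measured value enters the rule. Of the 6, 4 were measured among 28692 genes, namely *Malat1*, *Neat1*, *Kcnq1ot1* and *Snhg6*, and *Gas5* and *Snhg8* were not analysed here. The marrow came from C57BL/6J mice, 8 weeks old at purchase, each given 1000 BCR-ABL1+ pre-B acute lymphoblastic leukemia cells by tail vein without irradiation. A mouse was killed straight after transplant (day 0) or at day 3, 6, 9 or 12, so that every library, the day 0 library included, came from a mouse that had received leukemia cells. There was 1 mouse and 1 library per day, and a difference between days can therefore not be told apart from a difference between mice or libraries. Bones were flushed, crushed and digested with collagenase, red cells were lysed, and the cells were frozen before droplet capture, with no sorting for a cell type.

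A long noncoding RNA is a transcript without a long reading frame. *Malat1* lies in nuclear speckles, where splicing factors gather, and *Neat1* is the scaffold of paraspeckles, nuclear bodies that its long form builds together with a set of RNA-binding proteins. *Kcnq1ot1* is transcribed from the paternal chromosome, opposite to *Kcnq1*, and silences neighbouring genes of that imprinted domain. *Snhg6* carries a box C/D small nucleolar RNA in an intron, and its spliced remainder is the RNA counted here.

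The annotated 3′ ends of these RNAs are shown because the libraries counted the 3′ ends of transcripts. The counts are per gene and do not tell from which end, or from which form of *Neat1*, a count came. Sequences were taken from GENCODE vM21 on GRCm38, the assembly also called mm10, are written 5′ to 3′ in the sense of the RNA, and all come from the minus strand. *Malat1* (ENSMUSG00000092341) occupies chr19:5795690-5802672 and *Neat1* (ENSMUSG00000092274) lies nearby at chr19:5824708-5845478, both as long intergenic genes. The last bases of the long *Neat1* transcript, Neat1-201, and a stretch near the end of *Malat1* share the words TTTGCTTT and AAAGCAAA, set in capitals. These words are reverse complements of each other, and were searched in that order on the transcript strand of the last 100 bases. Both occurred so in 4 of 139316 transcripts of at least 100 bases (0.00287%), among which Neat1-201 was the member. The *Malat1* words end before the annotated end of Malat1-201, so that transcript was not in this count.
Malat1-201, bases 6592 to 6691, chr19:5795982-5796081: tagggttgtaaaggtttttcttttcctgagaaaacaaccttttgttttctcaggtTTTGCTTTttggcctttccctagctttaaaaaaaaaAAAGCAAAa
Neat1-201, bases 20672 to 20771, chr19:5824708-5824807: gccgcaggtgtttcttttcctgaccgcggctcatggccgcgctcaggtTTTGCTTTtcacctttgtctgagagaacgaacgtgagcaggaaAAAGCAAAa

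The short form of *Neat1*, *Kcnq1ot1* and *Snhg6* end instead behind an AATAAA signal, in capitals, which is the usual mark for cleavage and polyadenylation. The letters AATAAA stood in the last 60 bases of 27.1% of 141767 annotated transcripts, read on the transcript strand. *Kcnq1ot1* (ENSMUSG00000101609), a single unspliced transcript at chr7:143203458-143296549, held 30 runs of at least 8 A, the longest of 41, where *Malat1* held 1, of 12, and Neat1-201, Neat1-202 and Snhg6-203 held 0. *Snhg6* (ENSMUSG00000098234) lies at chr1:9941959-9944118, and its spliced transcript Snhg6-203 has 473 bases in 4 exons.
Neat1-202, last 60 bases, chr19:5842307-5842366: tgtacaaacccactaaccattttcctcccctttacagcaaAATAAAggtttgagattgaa
Kcnq1ot1-201, last 60 bases, chr7:143203458-143203517: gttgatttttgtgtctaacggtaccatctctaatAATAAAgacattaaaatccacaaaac
Snhg6-203, last 60 bases, chr1:9941959-9942018: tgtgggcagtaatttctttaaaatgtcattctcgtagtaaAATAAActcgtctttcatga

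The 5′ end of *Snhg6* is shown because it opens with an unbroken run of C and T, in capitals, as do many genes of the protein synthesis machinery. A C followed by at least 4 pyrimidines opened 2.02% of the 141767 transcripts.
Snhg6-203, first 60 bases, chr1:9944059-9944118: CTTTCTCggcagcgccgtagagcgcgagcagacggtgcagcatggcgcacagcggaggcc

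The 5 libraries held unique molecular identifiers (UMIs, each standing for 1 captured RNA molecule) numbering 33425695 at day 12 to 43554233 at day 9. Barcodes with at least 500 UMIs were taken as cells, which gave 5474 to 7604 cells per library, 32135 in all, with a median of 2874 to 3786 UMIs. Any pair of libraries shared 44 to 73 cell barcodes. Cells were clustered without the members, and the clusters were named from marker lists, so each class name below means cells with the markers of that type. The 28148 cells of 8 classes entered the comparisons, namely neutrophils, monocytes, granulocyte–macrophage progenitors (GMP), plasmacytoid dendritic cells, mature B cells, pro- and pre-B cells (pro/pre-B), T cells and natural killer (NK) cells. The GMP class also carried 5 markers of stem and multipotent progenitors. A level is the number of UMIs of a gene per 10000 UMIs of the class in a library, and intervals on levels and shares cover counting error only.

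The 4 RNAs had different patterns over the marrow classes. By the mean of 5 libraries *Malat1* was highest in mature B and T cells, *Neat1* in neutrophils and monocytes, *Snhg6* in pro/pre-B cells and GMP, and *Kcnq1ot1* in mature B cells, GMP and pro/pre-B cells, with little in neutrophils.

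**Figure D1:**
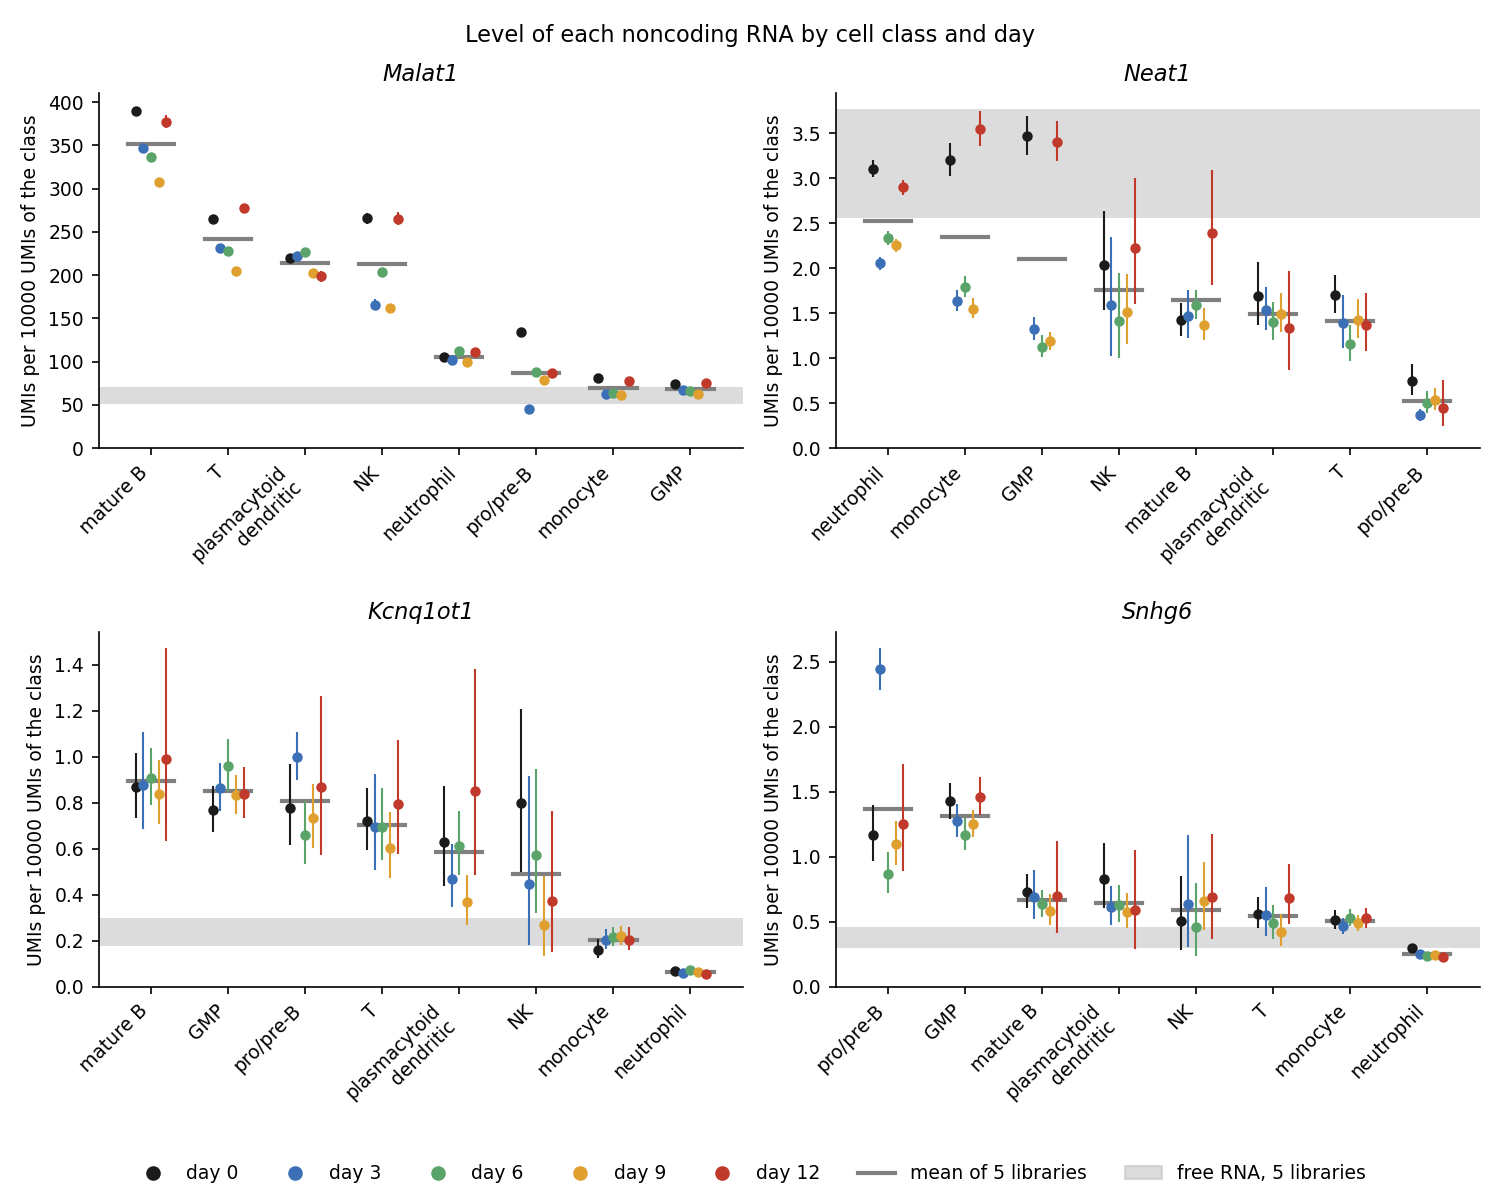
Level of the 4 RNAs (UMIs per 10000 UMIs of the class, y axis) in each of 8 cell classes (x axis) on each of the 5 days, with exact 95% Poisson intervals; the grey line is the mean of 5 libraries and the grey band the range of the level in barcodes with at most 100 UMIs. Malat1 stood at 307 to 390 in mature B cells against 62.2 to 75.5 in GMP, and Kcnq1ot1 at 0.0536 to 0.0706 in neutrophils.

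*Malat1* was present in loose RNA too, at 50.8 to 70.4 per 10000 UMIs in barcodes with at most 100 UMIs. A *Malat1* UMI was found in 96.7% to 99.3% of the cells of a library. The share of cells with a *Malat1* UMI therefore does not separate the classes, and its level is given instead. In mature B cells its level, in the order of days 0 to 12, was 390, 347, 337, 307 and 378. T cells followed with 265, 232, 228, 205 and 278, and these 5 values did not overlap those of mature B cells. Plasmacytoid dendritic cells lay at 199 to 226 and NK cells at 161 to 266, and these ranges overlapped each other and that of T cells.

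The myeloid classes and the pro/pre-B cells held less *Malat1* per UMI. Neutrophils had levels of 99.1 to 112, monocytes 61.6 to 81.0 and GMP 62.2 to 75.5. The means were 352 ± 32.8 (SD, n = 5) in mature B cells and 68.7 ± 5.56 (SD, n = 5) in GMP. Per cell the order was different, and the classes differed in UMIs per cell. The median was 12389 to 14680 UMIs in GMP, 3843 to 5001 in plasmacytoid dendritic cells and 1528.5 to 1860 in mature B cells. GMP held 81.1 to 104 *Malat1* UMIs per cell and plasmacytoid dendritic cells 94.2 to 116, against 69.6 to 86.5 in mature B cells and 42.8 to 53.5 in neutrophils.

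Class differences were tested with edgeR's quasi-likelihood test on counts summed per class and library, with the library as a block, scaled by TMM (trimmed mean of M-values), over 9986 genes with Benjamini-Hochberg adjustment. The 5 libraries served as replicates. With the library as a block, these p-values measure how much the class differences varied over 5 mice killed on different days. Adjusted p-values under 0.05 were called. There were 12 contrasts, 8 of a class against the mean of the other 7 and 4 between a class and a related one. The share of genes called ran from 12.4% to 79.4% over the 12 contrasts, and it is given for each contrast as its background. TMM moved the median log2 fold change of all genes, against scaling by library totals, by 1.10 in neutrophils against the other classes and by between -0.33 and 0.05 in the 7 other classes, and both values are given where a sign or a call differs.

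In mature B cells 2 of the 4 RNAs were called, where 48.8% of all genes were, and *Malat1* was 1 of them, with a log2 fold change of 1.40 ± 0.07 (SE; edgeR, adjusted p = 4.37e-23). In T cells 2 of 4 were called, against 46.9% of all genes, and *Malat1* was higher by 0.94 ± 0.07 on the log2 scale (edgeR, adjusted p = 7.22e-16). In plasmacytoid dendritic cells *Malat1* alone was called (log2 fold change 0.35 ± 0.08, edgeR, adjusted p = 0.000164; 42.6% of all genes), as in NK cells (0.37 ± 0.08, edgeR, adjusted p = 0.00018; 21.3% of all genes). *Malat1* was lower in monocytes, in GMP and in pro/pre-B cells, with log2 fold changes of -1.32, -1.32 and -1.06. For neutrophils the direction depended on scaling: the log2 fold change of *Malat1* was 0.65 ± 0.07 with TMM (edgeR, adjusted p = 5.03e-11) and -0.48 ± 0.09 with library totals (edgeR, adjusted p = 1.63e-06).

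Between related classes, mature B cells exceeded pro/pre-B cells in *Malat1* by 2.16 ± 0.11 on the log2 scale (edgeR, adjusted p = 3.35e-22). The mature B class held some pro/pre-B markers, with a summed level of 24.6 to 39.2 per library, and plasma cell markers at 4.76 to 170. At a clustering resolution of 1.2, where 713 cells led by *Dnajc7*, *Ebf1* and *Vpreb3* fell to the pro/pre-B class, the difference was 1.46 (edgeR, adjusted p = 4.05e-14). Neutrophils exceeded GMP by 1.72 ± 0.11 with TMM and by 0.62 ± 0.11 with library totals, and both were called. Monocytes and GMP were not called apart (log2 fold change -0.00 ± 0.10, edgeR, adjusted p = 0.997), but monocytes were lower with cells thinned to 1000 UMIs (-0.27, edgeR, adjusted p = 0.0178). NK cells were below T cells by 0.50 ± 0.10 (log2 fold change -0.50, edgeR, adjusted p = 0.000368), a call that ended with library totals (-0.20, edgeR, adjusted p = 0.223).

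**Figure D2:**
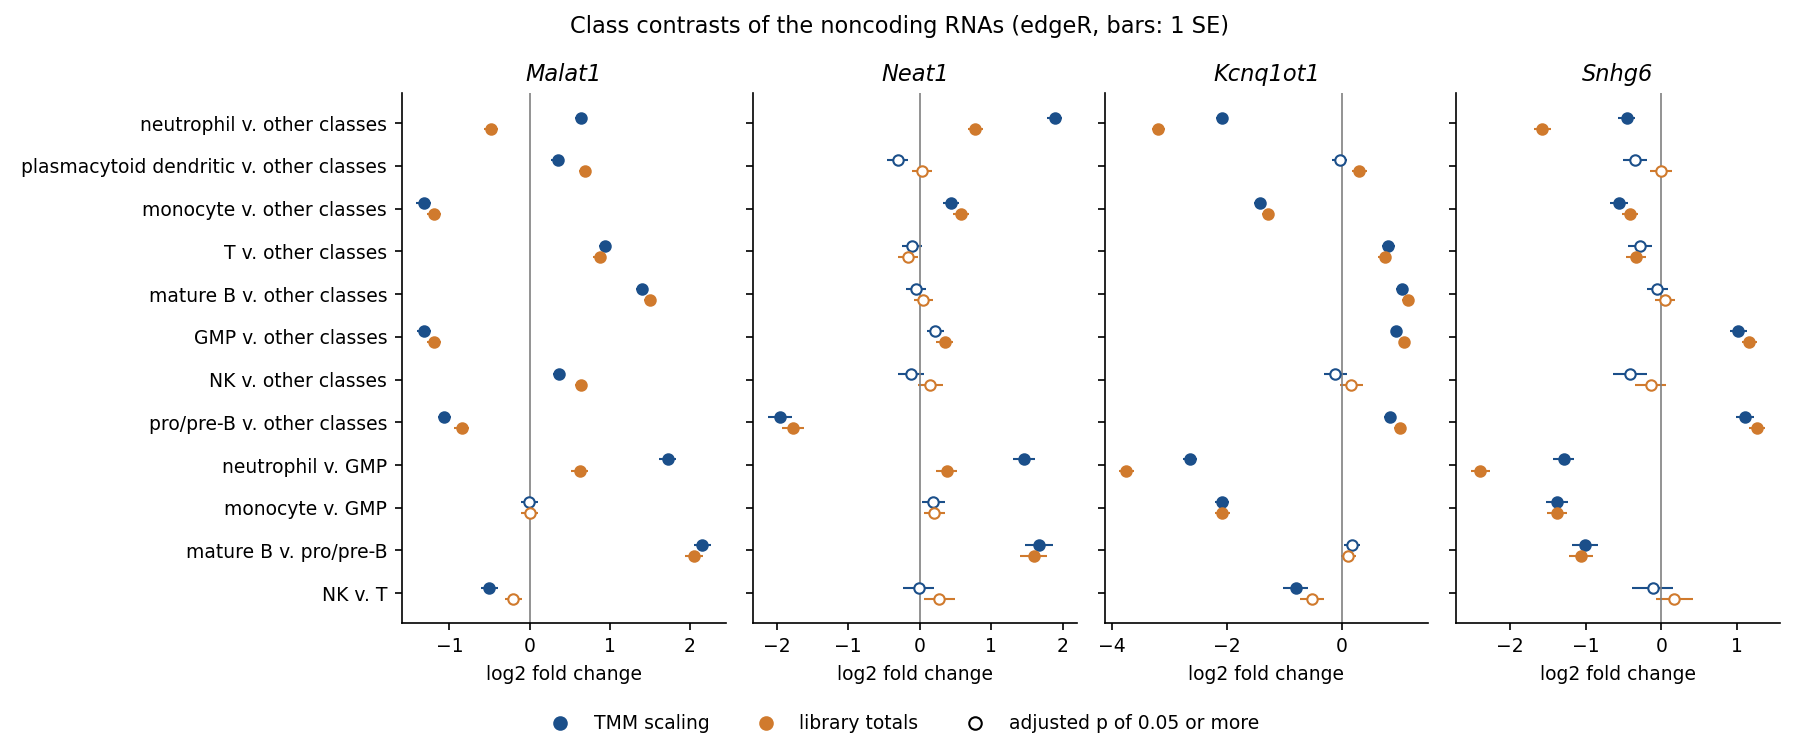
Log2 fold change ± 1 SE of the 4 RNAs (x axis) in 12 class contrasts (y axis), scaled by TMM (blue) or library totals (orange), with open symbols where the adjusted p was not under 0.05. For Malat1 in neutrophils the scalings lie on opposite sides of 0, at 0.65 and -0.48.

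Within the classes the level of *Malat1* was lower in cells with more UMIs. In neutrophils the mean level over libraries was 318 in cells of 500 to 1000 UMIs, 267 at 1000 to 2000, 159 at 2000 to 4000, 90.6 at 4000 to 8000 and 62.2 at 8000 to 16000. In mature B cells it was 653, 460, 333 and 217 in the 4 bins from 500 to 8000 UMIs. Classes still differed at equal depth. In the bin of 4000 to 8000 UMIs the level was 217 in mature B cells, 205 in plasmacytoid dendritic cells, 160 in T cells, 153 in GMP, 117 in pro/pre-B cells, 90.6 in neutrophils and 72.3 in monocytes. The order of GMP and neutrophils in this bin was the reverse of that over all cells. Spearman correlations between the UMIs of a cell and its *Malat1* count after thinning lay between -0.76 and -0.27 in the 37 pairs of a class and a library for which they were computed, as a description over cells that share a library.

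**Figure D3:**
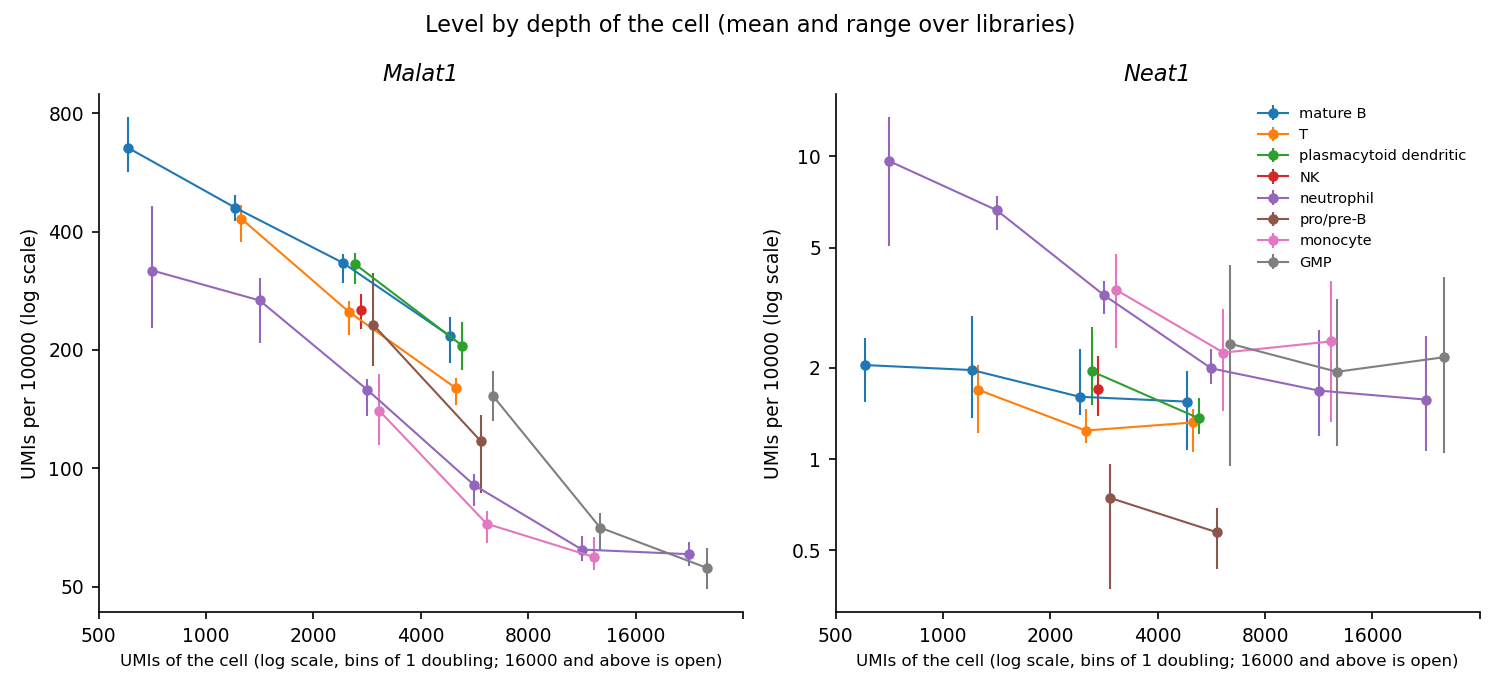
Level of Malat1 and of Neat1 (UMIs per 10000, log axis) against the UMIs of a cell in bins from 500 upward (log axis), for 8 classes, with the mean and range over libraries and points set slightly apart within a bin. Malat1 goes down with depth in the 7 classes that fill more than 1 bin, from 318 to 60.5 in neutrophils, and Neat1 does so in neutrophils, from 9.66 to 1.57.

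The speckle and splicing proteins, a list of 21 genes such as *Son*, *Srsf3* and *Pnisr*, did not follow *Malat1* class by class. In mature B cells 10 were higher and 4 lower, with a median log2 fold change of 0.12 against 0.01 for all genes. *Pnisr*, a speckle-resident protein, was at 0.72, and *Srsf3*, a splicing factor, at -0.34. In pro/pre-B cells, where *Malat1* was lower, 17 of 21 were higher and 1 was lower, with a median of 0.57 against 0.06. In monocytes 0 were higher and 17 lower (median -0.41 against -0.07 for all genes), or 1 and 13 with library totals.

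The genes whose class means were most like those of *Malat1* were *Fam65b* (Pearson r = 0.97), *Tnrc6b* (r = 0.97), which encodes a partner of Argonaute proteins, and *Chd2* (r = 0.96), a chromatin remodeller. This likeness was computed over 8 class means among 3806 genes, whose values share libraries, and describes this set of classes only.

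*Neat1* had its highest mean levels in neutrophils and monocytes. Its level was 3.11, 2.05, 2.33, 2.25 and 2.89 in neutrophils over the 5 days. Monocytes had 3.20, 1.64, 1.79, 1.55 and 3.55, and GMP had 3.47, 1.32, 1.13, 1.19 and 3.40. The NK, mature B, plasmacytoid dendritic and T classes lay at 1.15 to 2.39, and neighbours in the order overlapped down to T cells. At days 3, 6 and 9 GMP lay below the mature B, plasmacytoid dendritic and NK classes. Pro/pre-B cells were last, with 0.747, 0.364, 0.504, 0.534 and 0.450, and did not overlap any other class.

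Loose RNA bears on these low values. Barcodes with at most 100 UMIs, which stand for droplets without a cell, had a *Neat1* level of 2.55 to 3.76, which was 1.10 to 1.91 times that of all cells. An upper limit on the loose RNA in a class was set from UMIs of neutrophil granule genes found in it, taken as if all were loose. In GMP that limit allowed a *Neat1* level of 0.339 to 0.689, below the level measured on every day. In pro/pre-B cells it allowed 0.284 to 0.762, which reached the measured level at days 6 and 12, so *Neat1* was not detectable above loose RNA there. In T cells at day 6 it allowed 1.33, against a measured 1.15.

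For neutrophils all 4 RNAs were called, where 79.3% of all genes were, and *Neat1* was higher than in the other classes with a log2 fold change of 1.89 ± 0.10 (edgeR, adjusted p = 3.15e-22), or 0.78 ± 0.11 with library totals. In monocytes all 4 were called, against 64.7% of all genes, and *Neat1* was higher by 0.44 ± 0.12 on the log2 scale (edgeR, adjusted p = 0.00108). In GMP 3 of 4 were called, against 65.7% of all genes, and *Neat1* was the exception (log2 fold change 0.22 ± 0.12, edgeR, adjusted p = 0.11). It was called there with library totals (0.35, edgeR, adjusted p = 0.0079) and without the library of day 3, 6 or 9, when values ran from 0.31 to 0.41. In pro/pre-B cells all 4 were called, against 66.7% of all genes, and *Neat1* was lower (log2 fold change -1.96 ± 0.17, edgeR, adjusted p = 1.23e-14).

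Between related classes, 3 of 4 RNAs were called in mature B against pro/pre-B cells (56.6% of all genes), with *Neat1* higher by 1.67 ± 0.20 in mature B cells. All 4 were called in neutrophils against GMP (79.4% of all genes), with *Neat1* at 1.46 ± 0.16, or 0.38 ± 0.15 with library totals. At equal depth the means over libraries ran the other way, with overlapping ranges. In cells of 4000 to 8000 UMIs the mean *Neat1* level was 1.99 in neutrophils, 2.41 in GMP and 2.25 in monocytes. In cells of 8000 to 16000 UMIs it was 1.68, 1.94 and 2.45. Monocytes against GMP (62.3% of all genes) and NK against T cells (12.4% of all genes) had 2 calls each, and *Neat1* was in neither pair. Monocytes against GMP were called in *Neat1* with no filter on low counts (0.25, edgeR, adjusted p = 0.0401). Plasmacytoid dendritic cells were not called in *Neat1* (-0.31, edgeR, adjusted p = 0.0854), but were with no filter (-0.37), at resolution 1.2 (-0.39) and with cells thinned to 1000 UMIs (-0.48).

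Within the neutrophils *Neat1* differed between the larger clusters, which stand at different stages by their leading genes, as a description. Smaller neutrophil clusters of 708 cells, led by *Rsad2* and *Isg15*, and of 522 cells, led by *Clec4d* and *Cxcr2*, are left out here. The cluster led by *Fcnb*, *Chil3* and *Camp*, genes of immature neutrophils, had a level of 1.03 to 2.59. That led by *Ly6g*, *Ltf* and *Mmp8*, genes of secondary and tertiary granules, had 1.70 to 2.52. The cluster of 6021 cells led by *Cxcr2* and *Retnlg*, genes of mature neutrophils, had 4.34 to 5.89, above both of them in every library. The *Fcnb* and *Ly6g* clusters overlapped each other. *Malat1* was at 57.7 to 73.4, 79.3 to 97.5 and 173 to 244 in these clusters. *Snhg6* ran the other way, at 0.400 to 0.495, 0.191 to 0.205 and 0.0614 to 0.0783. Median UMIs per cell fell along this order too, from 10907 to 4238 and 2180, and their part in these levels was not tested.

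The paraspeckle proteins, 15 genes that include *Sfpq*, *Nono* and *Pspc1*, ran against *Neat1* in several classes. All 15 were higher in pro/pre-B cells, with a median log2 fold change of 0.72 against 0.06 for all genes, led by *Smarca4* (2.66, edgeR, adjusted p = 2.36e-32), which encodes a chromatin remodelling ATPase. In neutrophils 0 were higher and 12 lower with a median of -0.30 against -0.05. With library totals all 15 were lower there, as were 7646 of all 9986 genes, with a median of -1.41 against -1.15 for all genes. *Hnrnpk* (0.03) and *Pspc1* (-0.05) were not called there with TMM. In GMP 8 were higher and 1 lower, with a median of 0.17 against -0.01 for all genes. In neutrophils against GMP 13 were lower, with a median of -0.38 against -0.01.

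Genes most like *Neat1* over the 8 class means were *Myl12b* (r = 0.96), a myosin light chain, *Sh3bgrl3* (r = 0.87) and *Pstpip1* (r = 0.87), a cytoskeletal adaptor of blood cells. *Neat1* and *Malat1*, neighbours on chromosome 19, had r = 0.03 over the same means.

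*Neat1* also differed between days in the myeloid classes. In GMP its level was 3.47 at day 0 and 3.40 at day 12, against 1.13 to 1.32 at days 3, 6 and 9, and the counts behind these 5 values were 1017, 415, 338, 544 and 916. The log2 ratios to day 0 were -1.39 at day 3 (95% interval from counting -1.56 to -1.23), -1.62 at day 6 (-1.80 to -1.44) and -1.55 at day 9 (-1.70 to -1.40). At day 12 the ratio was -0.03 (-0.16 to 0.10). With cells thinned to 1000 UMIs, 27.7% of GMP held a *Neat1* UMI at day 0 and 28.4% at day 12, against 9.36%, 12.0% and 13.6% at days 3, 6 and 9.

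With 1 library per day there was no test between days, and a ratio is called past the fold when it reaches 1.5-fold either way with at least 50 UMIs over both libraries. In GMP 3 of 16 ratios of the 4 RNAs were past the fold, all *Neat1*, where 16.2% of gene and day pairs of that class were. In monocytes 3 of 16 were, all *Neat1* (13.2% of all pairs), with log2 ratios of -0.97, -0.84 and -1.05 at days 3, 6 and 9. In neutrophils 1 of 16 was (16.3% of all pairs), *Neat1* at day 3 with a log2 ratio of -0.60, which was -0.57 with a minimum of 1000 UMIs per cell and so no longer past the fold.

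The same days can be read by cluster, as a description with no test of the difference between clusters. In the monocyte cluster led by *Kpna2* and *Aurkb*, genes of dividing cells, *Neat1* was 4.84, 1.41, 1.66, 1.19 and 4.14 over the 5 days. In the larger monocyte cluster led by *S100a4* and *Ccr2* it was 2.73, 1.73, 1.87, 1.75 and 3.20. In the immature neutrophil cluster it was 2.59, 1.05, 1.03, 1.045 and 2.07. In the mature neutrophil cluster it was 5.89, 4.34, 5.11, 4.53 and 5.07, where day 6 was above day 12 and no ratio to day 0 was past the fold. In cells of 8000 to 16000 UMIs the GMP levels were 3.39, 1.30, 1.23, 1.10 and 2.69, and those of monocytes 3.74, 1.68, 1.62, 1.32 and 3.87. Days 0 and 12 were above the other 3 days in both classes at this equal depth, and also at 4000 to 8000 UMIs. In monocytes of 2000 to 4000 UMIs *Neat1* was 3.42, 3.97, 2.33 and 4.76 at days 0, 3, 9 and 12. There day 3, from 31 UMIs in 24 cells, was above day 0.

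Other measures moved over the same days. The summed level of 22 immediate-early and heat-shock genes, which respond to stress and to cell handling, was 91.5, 74.1, 61.9, 63.5 and 81.1 in GMP. In monocytes it was 133, 75.6, 72.9, 73.3 and 92.2, and in neutrophils 55.2, 37.7, 41.3, 36.0 and 48.9. Days 0 and 12 were thus the highest in each of the 3 classes. In GMP 8 of 21, 14 of 20 and 12 of 21 of these genes with enough counts were past the fold downward at days 3, 6 and 9. At day 12 it was 4 of 21, and 0 or 1 were upward on each day. Among all genes in GMP, 247 of 7217, 301 of 7147, 363 of 7815 and 244 of 6739 were past the fold downward at days 3 to 12. Upward there were 1029, 1018, 1104 and 381.

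The make-up of the GMP class also moved. The summed level of GMP markers in it was 174, 95.02, 115, 128 and 157 over the 5 days. That of stem and multipotent markers was 2.104, 4.20, 3.96, 3.71 and 2.57, and the median share of mitochondrial UMIs was 2.89%, 3.48%, 3.83%, 3.87% and 3.17%. Loose *Neat1* did not have this course, at 3.27, 2.55, 3.76, 3.43 and 3.66. The summed level of 7 basophil or mast cell markers in GMP moved more, at 0.814, 13.8, 6.46, 11.2 and 1.10. At resolution 1.2 a cluster of 477 cells led by *Mcpt8*, *Cpa3* and *Cd34* stood apart from the GMP cluster and got no class name. It carried 8 markers of stem and multipotent progenitors and 3 of basophil or mast cells. *Neat1* was 3.798, 1.30, 1.09, 1.15 and 3.46 in the remaining GMP cells and 2.24, 1.195, 1.18, 1.10 and 2.24 in that cluster. The part of the stress genes and of mitochondrial RNA in the *Neat1* difference was not tested. Of the 15 paraspeckle proteins 2 were past the fold in GMP, both upward at day 9, where 1104 of all 7815 genes were, and 0 on the other days.

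**Figure D4:**
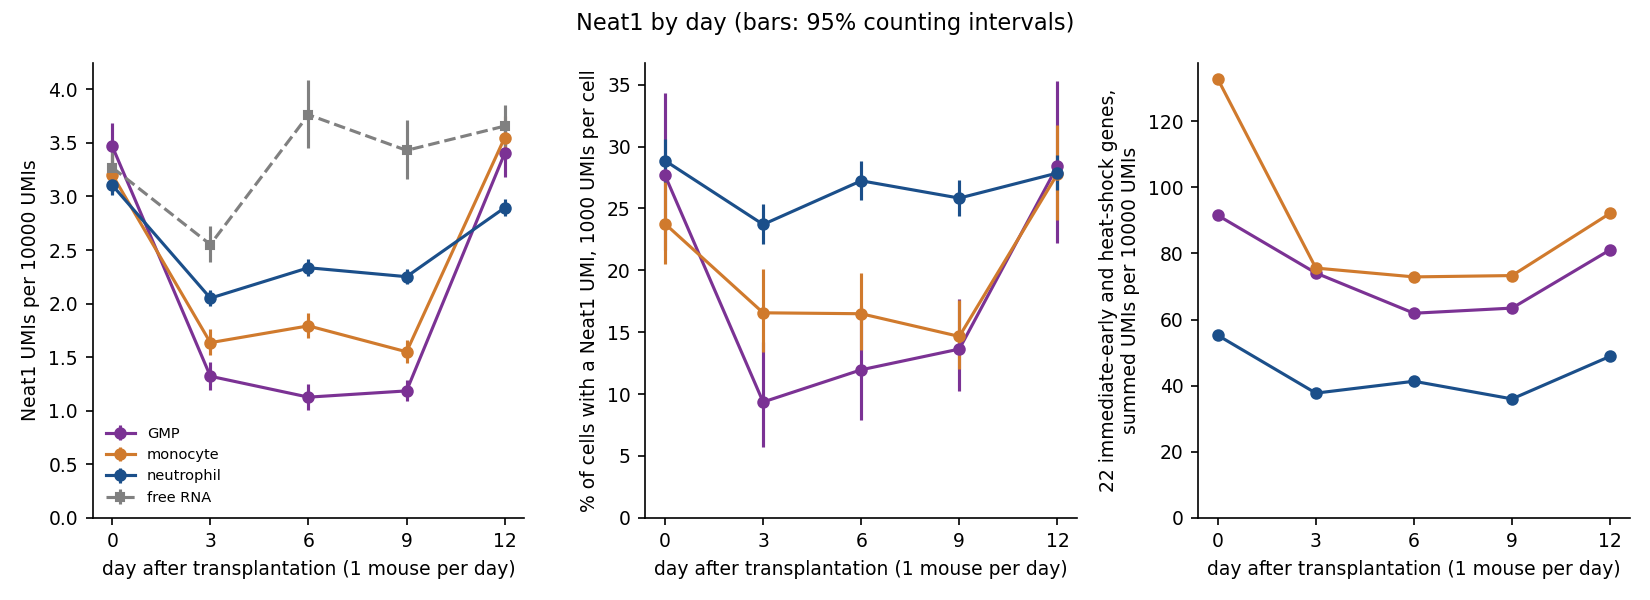
Neat1 by day after transplant (x axis, days) in GMP, monocytes and neutrophils: the level per 10000 UMIs with 95% Poisson intervals beside loose RNA, the percentage of cells with a Neat1 UMI after thinning to 1000 UMIs, and the summed level of 22 immediate-early and heat-shock genes. Neat1 in GMP stands at 3.47 and 3.40 at days 0 and 12 and at 1.13 to 1.32 between them.

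Day ratios past the fold are given here for T, mature B, NK and plasmacytoid dendritic cells, and further below for pro/pre-B cells. In T cells 0 of 16 were past the fold (14.2% of all pairs). In mature B cells 1 of 16 was (17.3% of all pairs), *Neat1* at day 12, at a level of 2.39 from 58 UMIs in 126 cells against 1.37 to 1.59 on the other days. In NK cells 2 of 8 ratios with enough counts were (15.5% of all pairs), both *Malat1*, at 166 and 161 on days 3 and 9 against 266 at day 0. With cells thinned to 1000 UMIs these 2 log2 ratios were -0.43 and -0.36 and no longer past the fold. In plasmacytoid dendritic cells 1 of 16 was (16.7% of all pairs), *Kcnq1ot1* at day 9 from 48 UMIs.

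*Kcnq1ot1* separated progenitors and lymphocytes from mature myeloid cells. Its level was 0.867, 0.877, 0.909, 0.838 and 0.989 in mature B cells and 0.767, 0.863, 0.960, 0.834 and 0.839 in GMP. Pro/pre-B cells had 0.660 to 1.0 and T cells 0.605 to 0.795. Neighbours in the order overlapped from mature B cells to NK cells, which lay at 0.268 to 0.798 from only 7 to 22 UMIs per library. Monocytes then had 0.160 to 0.219 and neutrophils 0.0536 to 0.0706, and neither overlapped its neighbour above.

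Neutrophils were thus far below the other classes in this RNA. After thinning, 0.326% to 0.584% of neutrophils held a *Kcnq1ot1* UMI, against 7.14% to 11.01% of mature B cells and 7.39% to 10.2% of GMP. The level in neutrophils was also below that of loose RNA, 0.176 to 0.299, in every library.

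The tests gave *Kcnq1ot1* a log2 fold change of -2.08 ± 0.11 in neutrophils against the other classes (edgeR, adjusted p = 2.88e-23), or -3.20 with library totals. Against GMP, neutrophils were at -2.65 ± 0.12 (edgeR, adjusted p = 4.91e-25) and monocytes at -2.08 ± 0.12 (edgeR, adjusted p = 4.28e-20). *Kcnq1ot1* was higher in mature B cells (1.05 ± 0.10), GMP (0.95 ± 0.09), pro/pre-B cells (0.85 ± 0.10) and T cells (0.81 ± 0.12), and all 4 were called. Mature B and pro/pre-B cells were not called apart (0.18 ± 0.13, edgeR, adjusted p = 0.261), but were without the library of day 3 (0.39, edgeR, adjusted p = 0.0155) and without a group of 124 pro/pre-B cells, 122 of them from day 3 (0.42, edgeR, adjusted p = 0.00223). In plasmacytoid dendritic cells it was at -0.03 with TMM, not called, and at 0.30 with library totals (edgeR, adjusted p = 0.0494). NK cells were lower than T cells (-0.80 ± 0.21, edgeR, adjusted p = 0.00666), a call lost without day 9 (edgeR, adjusted p = 0.135) or day 12 (edgeR, adjusted p = 0.0511) and with library totals (edgeR, adjusted p = 0.0955).

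*Kcnq1* itself, on the opposite strand, had 0 UMIs in all 32135 cells, where *Kcnq1ot1* had 4647. The strand setting of the counting is not given in the sources used here, and without strand the reads of overlapping genes cannot be told apart. Of 12 listed genes of the imprinted domain, 5 had enough counts to be tested, *Cd81* and *Tspan32*, which encode tetraspanins, *Tssc4*, *Nap1l4* and *Osbpl5*. In GMP 4 were higher and 0 lower, with a median log2 fold change of 0.42 against -0.01 for all genes. In monocytes all 5 were lower (median -0.87 against -0.07 for all genes), or 4 with library totals. In neutrophils *Cd81* was higher (2.32, edgeR, adjusted p = 1.32e-28) and *Osbpl5* lower (-3.54), while *Tspan32* was at 0.59 with TMM and -0.52 with library totals.

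Genes most like *Kcnq1ot1* over the class means were *Erdr1* (r = 0.96), the mitochondrial *mt-Cytb* (r = 0.96) and *Eef1g* (r = 0.95), a subunit of translation elongation factor 1. By day *Kcnq1ot1* stayed within 1.5-fold of day 0 in GMP, with log2 ratios of 0.17, 0.32, 0.12 and 0.13, and in neutrophils, monocytes, T, mature B and pro/pre-B cells.

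*Snhg6* was highest in the 2 classes of precursors. GMP had 1.43, 1.27, 1.17, 1.25 and 1.46 over the 5 days, and pro/pre-B cells had 1.17, 2.44, 0.866, 1.09 and 1.25. Mature B cells lay below GMP without overlap at 0.584 to 0.726. The T, NK, plasmacytoid dendritic and monocyte classes lay at 0.422 to 0.825, and neutrophils, at 0.230 to 0.299, overlapped no other class. After thinning, 12.0% to 14.2% of GMP held a *Snhg6* UMI, against 1.476% to 1.99% of neutrophils.

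The log2 fold change of *Snhg6* was 1.10 ± 0.12 in pro/pre-B cells (edgeR, adjusted p = 3.35e-11) and 1.02 ± 0.11 in GMP (edgeR, adjusted p = 1.42e-11). It was lower in monocytes (-0.56 ± 0.12) and in neutrophils (-0.46 ± 0.11, or -1.57 with library totals). Along the lineages it was lower in neutrophils than in GMP (-1.29 ± 0.14), in monocytes than in GMP (-1.38 ± 0.14) and in mature B than in pro/pre-B cells (-1.01 ± 0.17), and all 3 were called. Plasmacytoid dendritic, T, mature B and NK cells were not called against the other classes. In T cells the value was -0.28 (edgeR, adjusted p = 0.134) and was called lower with library totals (-0.34, edgeR, adjusted p = 0.0422) and under 3 other alternatives, with no filter at -0.39, with Scrublet doublets removed at -0.36 and without that group of pro/pre-B cells at -0.24. In plasmacytoid dendritic cells it was -0.35 (edgeR, adjusted p = 0.0694) and was called lower under the same 3, at -0.41, -0.38 and -0.27.

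The core proteins of small nucleolar particles changed in the same direction as *Snhg6* in these contrasts. All 8 tested, among them *Fbl*, the methyltransferase of box C/D particles, *Nop56*, *Nop58* and *Dkc1*, the pseudouridine synthase of box H/ACA particles, were higher in pro/pre-B cells, with a median of 1.26 against 0.06 for all genes. All 8 were higher in GMP as well (median 1.15 against -0.01), led by *Nop58* (1.39) and *Gar1* (1.37). All 8 were lower in neutrophils (median -1.80), in neutrophils against GMP (-2.66), in monocytes against GMP (-1.49) and in mature B against pro/pre-B cells (-1.40). The same counts held with library totals, where the median in neutrophils was -2.92 against -1.15 for all genes.

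Other host genes of small nucleolar RNAs, of which 19 of 34 listed were tested, had 15 higher and 1 lower in pro/pre-B cells, 15 and 2 in GMP, 15 and 1 in T cells, and 1 and 17 in neutrophils. Among all 9986 genes, 3692 were higher and 2964 lower in pro/pre-B cells, and 3311 and 3254 in GMP. The counts over all genes were 2446 and 2236 in T cells, and 3892 and 4030 in neutrophils. *Npm1*, a nucleolar chaperone and host gene, was at 1.11 in GMP and -2.35 in neutrophils. *Eif4a2*, a translation initiation factor, was at -0.45 in GMP and 0.18 in neutrophils (edgeR, adjusted p = 0.0123), where with library totals it was at -0.94. Nonsense-mediated decay factors, which degrade spliced host transcripts, had 10 of 15 higher and 1 lower in pro/pre-B cells and 7 and 4 in neutrophils, or 1 and 14 there with library totals. Their median log2 fold change in pro/pre-B cells was 0.30 against 0.06 for all genes. In neutrophils it was 0.17 against -0.05. With library totals it was -0.93 there against -1.15, and 7646 of all 9986 genes were lower.

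*Snhg6* was most like *Ruvbl1* (r = 0.99), a helicase that helps assemble small nucleolar particles, *Wdr12* (r = 0.98), a ribosome biogenesis factor, and *Nolc1* (r = 0.98), a nucleolar phosphoprotein. Over the class means *Snhg6* and *Kcnq1ot1* had r = 0.81, and *Snhg6* and *Neat1* r = -0.65. The gene *Mcmdc2* overlaps *Snhg6* on the other strand and had 367 UMIs in all cells against 8347 for *Snhg6*, counts that depend on the strand setting as well.

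The other listed long noncoding RNAs did not share a pattern. Of 8 tested, *Mir142hg*, the host of a blood-cell microRNA, and *Mirt1* were higher in neutrophils (both 1.67), while *Lncpint* (-3.78) and *Jpx* (-2.24), a regulator of *Xist*, were lower. In T cells 6 of the 8 were higher and 0 lower, with a median of 0.88 against -0.00 for all genes.

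Pro/pre-B cells had more day ratios past the fold than any other class, 7 of 16, where 22.1% of all pairs of that class were. *Malat1* was 134 at day 0 and 45.01, 87.6, 78.8 and 87.3 at days 3, 6, 9 and 12, with log2 ratios of -1.57, -0.61, -0.77 and -0.62. *Snhg6* was past the fold upward at day 3, with 2.44 against 1.17 and a log2 ratio of 1.07. *Neat1* was past it downward at days 3 and 12, from 131 and 14 UMIs, at levels where loose RNA reached or came close to the measured value.

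The day 3 values rested in large part on a group of cells that almost only this library held. At a finer clustering, 124 cells led by *Myl10*, *Rnase12*, *Cdkn2a* and *Tmem119* formed a cluster of their own, 122 of them from day 3 and 2 from day 0. They were 46.2% of the 264 pro/pre-B cells of day 3 and had a median of 20454.5 UMIs, against 3695.5 in the remaining 142. In this group *Malat1* was 33.1, *Neat1* 0.329, *Kcnq1ot1* 1.15 and *Snhg6* 2.88.

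Without the group, *Snhg6* at day 3 was 1.27 against 1.16 at day 0, with a log2 ratio of 0.13, and was no longer past the fold. *Malat1* was then 76.4 against 134, with a log2 ratio of -0.81, and *Kcnq1ot1* 0.597 against 0.790. In cells of 2000 to 4000 UMIs *Malat1* was 313, 211, 222 and 182 at days 0, 3, 6 and 9, and in cells of 4000 to 8000 UMIs it was 137, 119, 127 and 86.7. Day 0 was the highest in both bins. The median UMIs of pro/pre-B cells were 3116 at day 0 and 4680 to 10612.5 later, and the part of this difference in depth in the *Malat1* ratios was not tested. At a clustering resolution of 1.2 the *Malat1* ratios of days 6 and 9 were -0.12 and -0.51 and no longer past the fold.

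**Figure D5:**
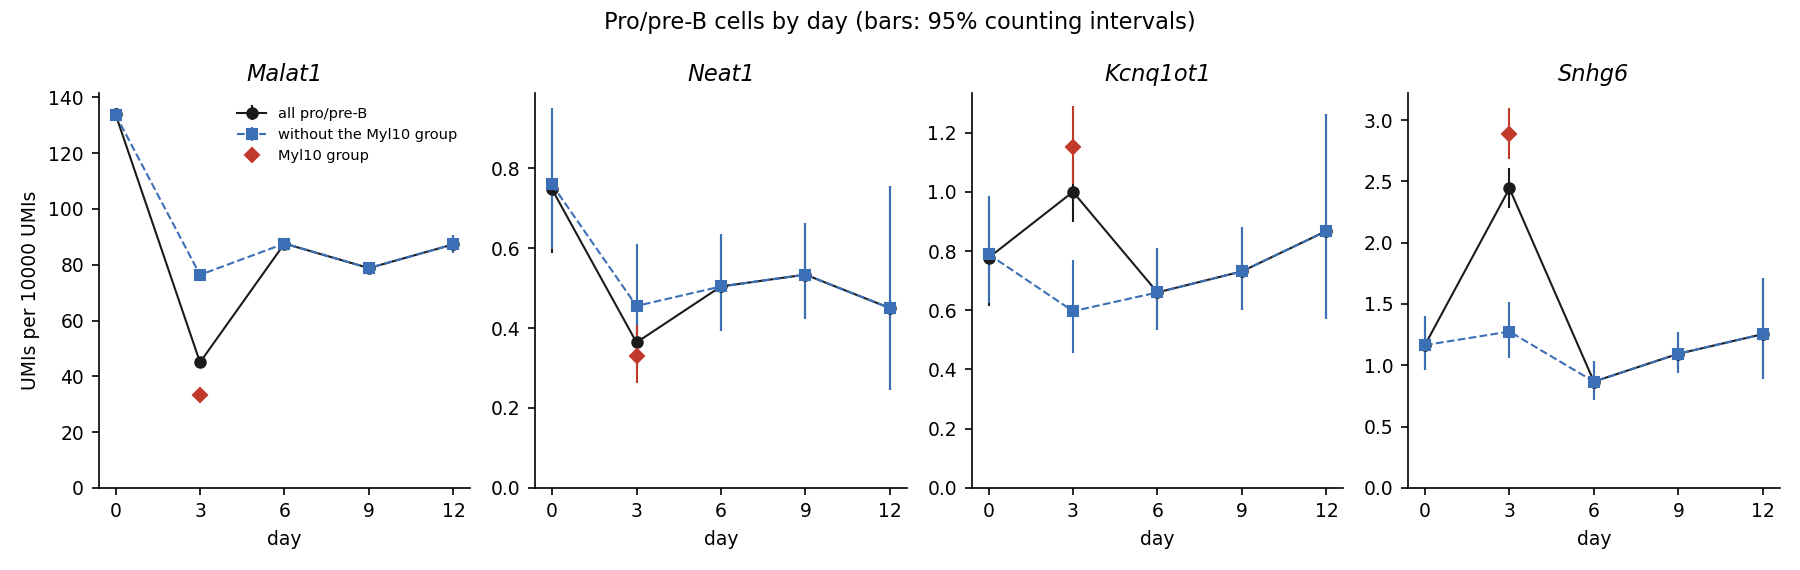
Levels of the 4 RNAs (UMIs per 10000, y axis) by day (x axis) in all pro/pre-B cells, without the group led by Myl10, and in that group at day 3, with 95% Poisson intervals. At day 3 Snhg6 reads 2.44 in all cells, 1.27 without the group and 2.88 in it.

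Loose RNA held the 4 transcripts in different proportions to the cells. The ratio of the level in barcodes with at most 100 UMIs to that in cells was 0.496 to 0.571 for *Malat1*, with a mean of 0.543 over the 5 libraries. It was 1.10 to 1.91 for *Neat1* (mean 1.5), 0.716 to 0.975 for *Kcnq1ot1* (mean 0.833) and 0.616 to 0.804 for *Snhg6* (mean 0.695). *Malat1* was thus below its cell level in loose RNA and *Neat1* above it in all 5 libraries.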

How the data were processed

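Cells were captured with the 3′ chemistry of 10x Genomics, and per the submitters' processing notes the authors ran Cell Ranger on mm10. The deposited values are raw UMI counts for every barcode. The strand setting, aligner and annotation version are not given in the sources used here. The members and gene lists were chosen with earlier results of these data known.

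Barcodes with at least 500 UMIs were cells and those with at most 100 were loose RNA. Members were left out of the clustering (scanpy 1.11.5, leidenalg 0.10.2, 1000 variable genes asked for, 20 components, resolution 0.6), and a cluster was named from at least 3 of its fixed markers. The 3987 cells of other clusters did not enter the comparisons. Counts were summed per class and library and tested with edgeR 4.0.16 (R 4.3.3) with the library as a block, since classes of 1 library come from 1 mouse. The fit was tested on simulated data. Days had 1 library each and got no test. Scrublet's automatic threshold marked 155 cells at day 0 and 0 to 2 elsewhere and did not work, so no doublets were removed in the values given. Depth was 33425695 to 43554233 UMIs per library. Shares have exact binomial intervals. Genes named are the members, from each list at most the 3 highest and 2 lowest values of a comparison, and the 3 genes most like each member, and genes named to define a list or cluster. Alternatives covered scaling, filters, DESeq2 1.42.0, depth, doublets, mitochondrial share, clustering and each library left out. *Gas5* and *Snhg8* were not analysed here.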

Additional observations from a re-analysis of the deposited data

Results flagged for a closer look

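Over the 4 RNAs and 8 classes, 32 series of 5 library values were screened for a value whose gap to the nearest other, divided by the whole range, passed Dixon's 95% critical value for 5 samples, and 5 did. Chance flags about 1 in 20 groups, and the 5 libraries here are different days as well as different mice.

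*Snhg6* was flagged in 3 classes. In neutrophils the day 0 library was the highest, at a level of 0.299 per 10000 UMIs against 0.230 to 0.248 on the other days, with a gap ratio of 0.737. In plasmacytoid dendritic cells day 0 was the highest again, at 0.825 against 0.571 to 0.628, with a ratio of 0.779, from 46 UMIs. In pro/pre-B cells day 3 was the highest, at 2.44 against 0.866 to 1.25, with a ratio of 0.754, and without the 124 cells led by *Myl10* that day read 1.27.

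*Kcnq1ot1* in monocytes was lowest at day 0, at 0.160 against 0.203 to 0.219, with a ratio of 0.723. *Neat1* in mature B cells was highest at day 12, at 2.39 against 1.37 to 1.59, with a ratio of 0.789, from 58 UMIs in 126 cells.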

How the results depend on the processing

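Of the values tested between classes, 739 kept their side of the threshold under an alternative, 23 became called and 4 lost the call. A further 2 changed sign with a call in either setting. Sign changes between uncalled values were not counted as changes. Both counted sign changes came with library totals: *Malat1* in neutrophils was at -0.48 and *Kcnq1ot1* in plasmacytoid dendritic cells at 0.30 (-0.03 with TMM, not called). Leaving out a library in turn gave 17 to 19 member calls higher and 14 to 15 lower, against 17 and 15. Without the replicate block there were 17 and 15, so the pairing of classes by library changed no member call. Day ratios past the fold upward numbered 4 with means over cells and 1 without the day 3 pro/pre-B group, against 2. With barcodes of at most 50 UMIs the ratio of loose RNA to cells was 0.754 for *Malat1*, 2.64 for *Neat1*, 1.02 for *Kcnq1ot1* and 0.803 for *Snhg6*; the cause was not tested. Thinning cells to 1000 UMIs lowered the genes tested from 9986 to 4617. The genes called per contrast went from 1237 to 7927 down to 472 to 3692, with fewer counts by construction. With library totals the share of calls that were higher went from 49.1% to 14.5% in neutrophils, 51.5% to 83.1% in plasmacytoid dendritic cells, 47.8% to 60.6% in monocytes, 50.4% to 62.7% in GMP, 48.0% to 78.2% in NK cells, 55.5% to 65.6% in pro/pre-B cells, 49.5% to 16.6% in neutrophils against GMP and 40.9% to 78.0% in NK against T cells. The mitochondrial limit at day 12 removed 82.4% to 87.7% of GMP, T, mature B and plasmacytoid dendritic cells, so its day 12 values rest on few cells. Removing the 5% of cells with the highest Scrublet scores and leaving out the day 3 group were chosen after seeing the data.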

Other observations

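The clusters that carried no class name held the 4 RNAs at levels of their own. Summed over these 4 clusters, *Neat1* was at 4.19, 2.65, 2.95, 2.69 and 4.21 per 10000 UMIs in the order of days 0 to 12, so days 0 and 12 were the highest here too. *Malat1* was at 125 to 150, *Kcnq1ot1* at 0.232 to 0.309 and *Snhg6* at 0.512 to 0.581. The largest of the 4, with 1521 cells, had a median of 61.6% mitochondrial UMIs, and the others were led by *Cd83* and major histocompatibility genes, by *Cxcl2* and *Il1b*, and by *Crem* and *Xcl1*.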
